A study of Mus musculus with 8 samples.

Results

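Pou5f1, Nanog, Sall4, Utf1, Zfp42, Tdh, Dppa2, Dppa3, Dppa4 and Dppa5a are genes whose RNA is abundant in mouse embryonic stem cells (mESCs). They were taken as the rows of these symbols among the 24849 genes listed in each sample, and all 10 were among the 13214 genes tested. The study asked whether PCGF5, a subunit of variant Polycomb repressive complex 1, is needed when mESCs turn into neural cells. RNA was sequenced from cells of the MPI-II line, of 129S2/SvPas origin, either wild type (WT) or Pcgf5-/-, at day 0 and after 6 days in the defined medium N2B27, where mESCs take a neural fate. Both genotypes had first been grown on feeder cells with serum, leukemia inhibitory factor (LIF) and the 2i inhibitors CHIR99021 and PD0325901. Each of the 4 groups held 2 samples, which the submitters call biological replicates. Pcgf5-/- cells were made by TALEN cleavage in the second exon with puromycin and neomycin donor cassettes, and single colonies were picked. The sources used here do not say how many clones were sequenced, so the knockout and a property of 1 clone cannot be told apart.

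POU5F1 (OCT4) and NANOG are the transcription factors at the centre of the mESC regulatory network, and SALL4 and ZFP42 (REX1) are zinc finger proteins that act beside them. UTF1 is a chromatin protein of pluripotent cells, and TDH is the mitochondrial threonine dehydrogenase on which mESCs depend for glycine and one-carbon units. DPPA2 and DPPA4 form a SAP-domain heterodimer on chromatin, DPPA3 (STELLA) guards methylated DNA against oxidation in the egg and early embryo, and DPPA5A (ESG1) is an RNA-binding KH-domain protein. During neural differentiation this programme is normally shut down, while DPPA3, NANOG and other members are used again in primordial germ cells.

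Levels are FPKM (fragments scaled to exon length and to the number of mapped fragments), a unit per length, so that genes can be set beside each other. Differences are given on the log2(FPKM + 1) scale with their standard error (SE) from 1 limma fit of all 8 samples. A gene was called at a Benjamini-Hochberg adjusted p under 0.05 over the 13214 tested genes. That fit shares the spread of each gene across the 4 groups, so samples outside a comparison change its SE and p-value but not its difference. Fits without 1 sample called fewer of all tested genes in every comparison, so a call lost there need not be particular to the gene. Absolute depth is not known from FPKM, and relative depth, read from the spacing of low values, was 0.993 to 1.29 times that of WT day 0 sample 1. Within each group the 2 samples had a Pearson correlation of 0.972 to 0.974 across tested genes. Pcgf5 itself (mm9 chromosome 19, 36453557-36530694) measured 5.18 and 3.63 FPKM in the WT day 0 samples and 1.28 and 1.84 FPKM in the Pcgf5-/- day 0 samples. The day 6 values were 9.16 and 5.06 FPKM (WT) and 0.669 and 0.457 FPKM (Pcgf5-/-), a log2 difference of −2.33 (SE 0.28, limma adjusted p = 0.00421). At day 0 the log2 difference of Pcgf5 was −1.07 (limma adjusted p = 0.105). Pcgf5 was lower in both Pcgf5-/- samples than in both WT samples on each day, and its mean was 35.5% of that in WT at day 0 and 7.91% at day 6, so that the RNA level at day 0 is a weak check of the label. Genes of chromosomes 6 and 11 were shifted upward as a whole in Pcgf5-/- cells, with median log2 differences of 0.41 and 0.48 at day 0 and 0.37 and 0.38 at day 6, against 0.04 to 0.12 and −0.06 to 0.03 on the other chromosomes. Nanog and Dppa3 lie on chromosome 6.

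RefSeq promoter windows, from 250 bases before to 50 bases after a start site, were at hand for 4 of the 10 genes in build GRCm38.p6. They are shown because they were at hand, and were not chosen by the level or the motifs of the genes. Nanog and Zfp42 carry the letters of the POU octamer core. Capitals mark the searched motifs on either strand, and where a gene had 2 windows the first is printed. The windows are chr17:35505782-35506081 (plus strand) for Pou5f1, chr6:122707239-122707538 (plus strand) for Nanog, chr7:139943606-139943905 (plus strand) for Utf1 and chr8:43306960-43307259 (minus strand) for Zfp42.
Pou5f1: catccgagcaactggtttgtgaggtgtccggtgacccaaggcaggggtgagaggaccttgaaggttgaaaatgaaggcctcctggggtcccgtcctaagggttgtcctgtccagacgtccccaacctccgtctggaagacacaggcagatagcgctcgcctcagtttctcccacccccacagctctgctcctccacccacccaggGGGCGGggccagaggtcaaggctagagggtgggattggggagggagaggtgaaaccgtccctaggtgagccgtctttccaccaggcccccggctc
Nanog: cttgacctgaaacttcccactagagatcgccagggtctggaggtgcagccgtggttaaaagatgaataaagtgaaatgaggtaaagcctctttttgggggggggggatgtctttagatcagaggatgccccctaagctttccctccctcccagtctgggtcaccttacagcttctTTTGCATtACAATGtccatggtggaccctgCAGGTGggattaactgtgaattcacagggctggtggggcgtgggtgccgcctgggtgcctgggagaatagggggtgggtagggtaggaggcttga
Utf1: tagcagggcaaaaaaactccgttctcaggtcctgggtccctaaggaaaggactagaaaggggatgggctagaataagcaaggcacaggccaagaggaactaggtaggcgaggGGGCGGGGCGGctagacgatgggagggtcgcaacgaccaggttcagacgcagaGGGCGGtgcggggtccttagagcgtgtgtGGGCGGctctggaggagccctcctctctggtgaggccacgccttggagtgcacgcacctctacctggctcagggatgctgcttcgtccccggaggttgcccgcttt
Zfp42: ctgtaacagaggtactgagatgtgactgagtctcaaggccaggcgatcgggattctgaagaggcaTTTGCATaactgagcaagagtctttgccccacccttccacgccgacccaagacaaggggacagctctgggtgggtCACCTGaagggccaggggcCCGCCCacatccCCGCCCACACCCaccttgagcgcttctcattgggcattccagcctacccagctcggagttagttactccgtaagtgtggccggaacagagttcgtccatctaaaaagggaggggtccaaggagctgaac
The octamer core ATGCAAA, the letters read by POU factors, stood 75 bases before the start site of Nanog and 185 bases before that of Zfp42, in both cases on the minus strand, and 4.63% of all 32851 windows hold it. In Nanog it was followed after 1 base by the SOX core ACAATG at 67 bases before the start (ACAAAG or ACAATG is in 28.6% of windows). The KLF/SP box GGGCGG occurred 4 times in Utf1 (the 2 farthest from the start overlap by 1 base), 2 times in Zfp42 and 1 time in Pou5f1 (35.7% of windows), and in Zfp42 the nearer of the boxes overlapped the KLF box GGGTGTG (7.95% of windows). The E-box CACCTG was in the Nanog and Zfp42 windows (20.2% of windows). The other Pou5f1 window, chr17:35508557-35508856, held ACAATG and the REX1/YY1 core GCCATNT (15.1% of windows), and the other Nanog window overlaps the one printed. AAGGTCA of ESRRB (4.72% of windows), the E-box CACGTG (7.15%) and the TATA box TATAAA (13.6%) were in none of the 6 windows. These matches describe letters only.

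At day 0 the 10 genes spanned from Dppa5a, at 746 ± 85.8 FPKM in WT (SD, n = 2), to Dppa3, at 13.9 ± 5.88 FPKM. In WT the order was Dppa5a, Pou5f1, Nanog, Zfp42, Tdh, Sall4, Utf1, Dppa4, Dppa2 and Dppa3, in which Sall4 overlapped with Utf1, Utf1 with Dppa4 and Dppa4 with Dppa2, and the other neighbours did not overlap between samples. Dppa5a stood at the 99.6th percentile of tested genes and Dppa3 at the 63.9th. At day 6 the WT order became Dppa5a, Pou5f1, Sall4, Utf1, Nanog, Dppa4, Zfp42, Dppa2, Tdh and Dppa3, in which all neighbours overlapped, between 122 ± 64.5 and 13.3 ± 7.76 FPKM (SD, n = 2). At day 6 in Pcgf5-/- cells Dppa5a (405 ± 26.4 FPKM) and Pou5f1 (241 ± 18.0 FPKM) led again, followed by Utf1 (147 ± 10.3 FPKM), which overlapped with Nanog (141 ± 3.79 FPKM). Below Zfp42, the neighbours Dppa4, Dppa3, Dppa2, Sall4 and Tdh overlapped, and Tdh was lowest at 49.0 ± 10.5 FPKM.

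**Figure D1:**
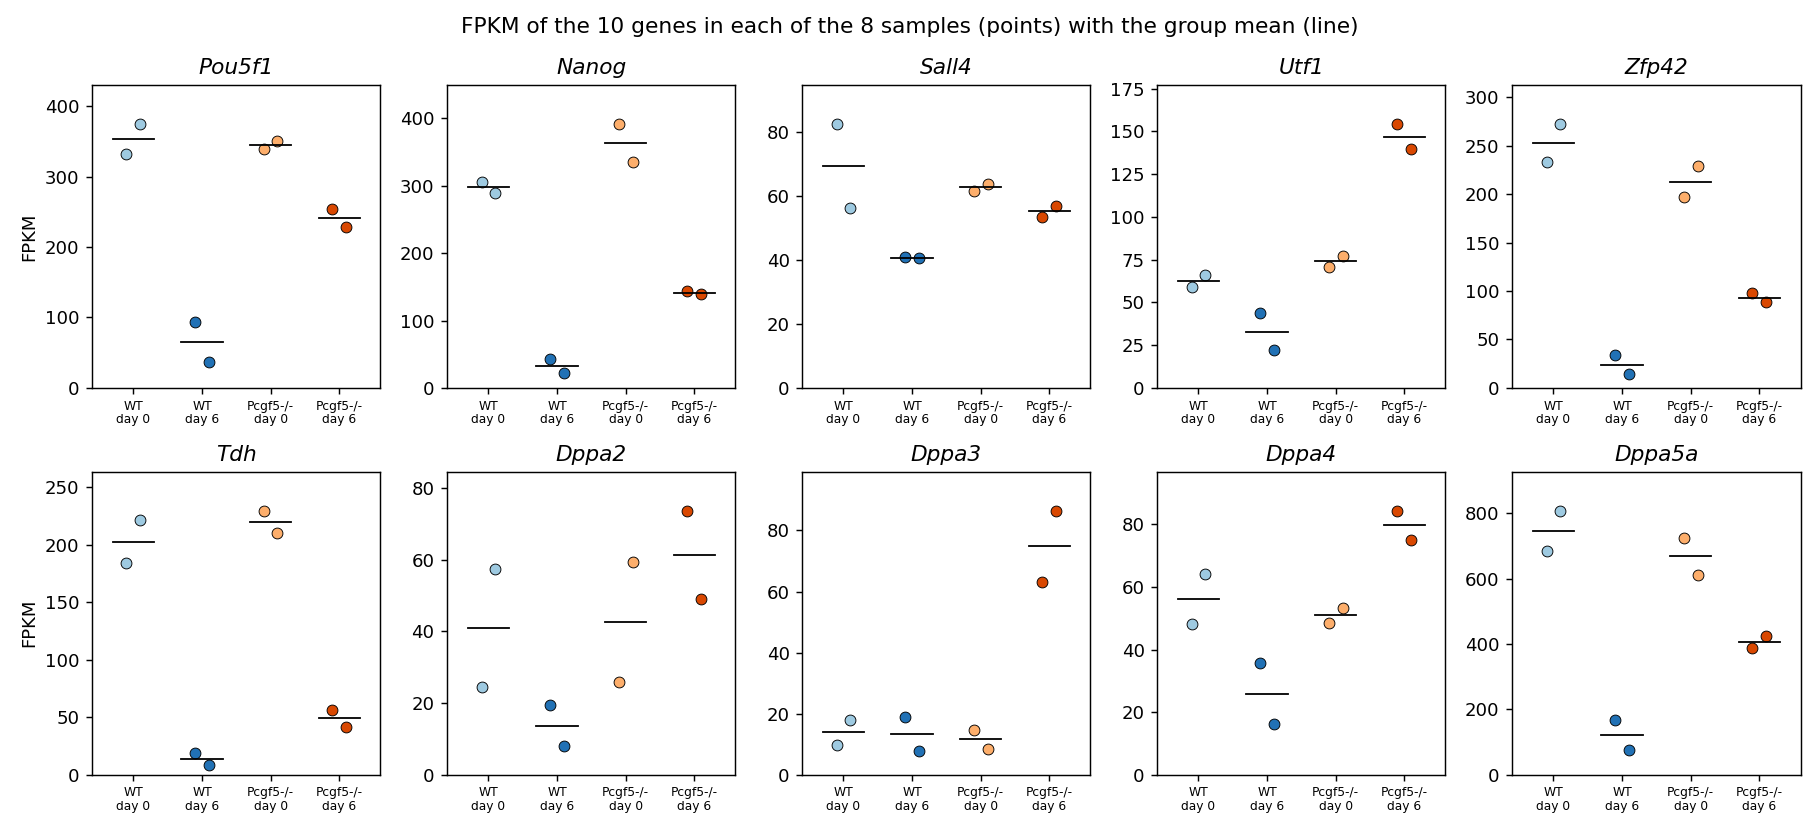
FPKM (linear axis from 0, 1 panel per gene) of the 10 genes in the 8 samples; points are samples and lines are means of the 2 samples in a group. At day 6 both Pcgf5-/- samples lie above both WT samples in all 10 panels, and Dppa3 is at 63.2 and 86.3 FPKM in Pcgf5-/- day 6 samples against 7.78 to 18.7 FPKM in the other 6.

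Pou5f1 (chromosome 17, 35642977-35647722; these and all gene positions below are mm9) encodes OCT4, without which the inner cell mass does not stay pluripotent. Its FPKM at day 0 was 333 and 374 in WT and 339 and 351 in Pcgf5-/- cells. By day 6 WT samples had 93.8 and 36.2 FPKM and Pcgf5-/- samples 254 and 228 FPKM. The day 0 samples of both genotypes were high and overlapped, the WT day 6 samples were low, and the Pcgf5-/- day 6 samples lay between them without overlap. The WT mean at day 6 was 18.4% of that at day 0, a log2 change of −2.57 (SE 0.35, limma adjusted p = 0.000588). In the knockout 69.9% remained (−0.52, SE 0.35, limma adjusted p = 0.293). This change passed the test with the Pcgf5-/- groups fitted alone (limma adjusted p = 0.0378) or without either WT day 6 sample. The WT samples enter its SE and not the change itself. The genotypes differed by 2.03 at day 6 (SE 0.35, limma adjusted p = 0.0107), and without Pcgf5-/- day 6 sample 1 by 1.95 with an adjusted p of 0.0698. The 2 WT day 6 samples were 2.59-fold apart, and the difference was 2.70 without sample 1 and 1.35 without sample 2.

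Nanog (chromosome 6, 122657507-122664651) encodes the homeodomain factor that lets mESCs self-renew without LIF when it is abundant. It was at 306 and 290 FPKM in WT and 391 and 335 FPKM in Pcgf5-/- samples of day 0. The day 6 levels were 43.0 and 22.2 FPKM in WT and 144 and 139 FPKM in Pcgf5-/- samples. No groups overlapped, and Nanog was lower at day 6 in each genotype. It fell by 3.22 on the log2 scale in WT (SE 0.26, limma adjusted p = 4.3e-05). In Pcgf5-/- cells it fell by 1.35 (SE 0.26, limma adjusted p = 0.00598), to 39.0%. The genotype difference was 0.28 at day 0 (limma adjusted p = 0.628), which became −0.16 when each chromosome was centred in each sample, and 2.16 at day 6 (SE 0.26, limma adjusted p = 0.00421). Without 1 day 6 sample the difference ran from 1.69 to 2.62, and the call held in each of these fits.

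Zfp42 (chromosome 8, 44380421-44392363) encodes REX1, a YY1-related protein used as a marker of undifferentiated mESCs. At day 0 it was at 233 and 272 FPKM in WT and 197 and 229 FPKM in Pcgf5-/- cells. By day 6 the values were 33.5 and 14.1 FPKM in WT and 98.4 and 88.1 FPKM in Pcgf5-/- cells. The WT day 6 samples were lowest, at 9.43% of day 0 on average, and the Pcgf5-/- day 6 samples, at 43.8%, lay between them and the day 0 samples. The log2 change over the 6 days was −3.47 in WT (SE 0.32, limma adjusted p = 8.96e-05) and −1.18 in Pcgf5-/- cells (SE 0.32, limma adjusted p = 0.0252). The call in Pcgf5-/- cells was lost without any 1 of the 4 Pcgf5-/- samples (0.0776 and 0.107 without day 0 sample 1 and 2, 0.0787 and 0.115 without day 6 sample 1 and 2). At day 6 the genotypes differed by 2.04 (SE 0.32, limma adjusted p = 0.00852, and 0.0597 without Pcgf5-/- day 6 sample 1).

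Sall4 (chromosome 2, 168573832-168592701) encodes a zinc finger factor that binds POU5F1 and recruits the NuRD deacetylase complex. The day 0 samples had 82.4 and 56.3 FPKM (WT) and 61.6 and 63.8 FPKM (Pcgf5-/-). The day 6 samples had 40.9 and 40.6 FPKM (WT) and 53.4 and 56.9 FPKM (Pcgf5-/-). The difference between the genotypes at day 6 was the smallest among the 10 genes, although the samples of the genotypes did not overlap. In WT Sall4 fell by 0.73 (SE 0.17, limma adjusted p = 0.00829), or by 0.46 without WT day 0 sample 1 (0.0321), and in Pcgf5-/- cells the change was −0.18 (limma adjusted p = 0.451). The genotype difference at day 6 was 0.43 (95% interval 0.03 to 0.82, limma adjusted p = 0.125). Among the fits without 1 sample, it passed the test only without a WT day 0 sample, which changes its SE and not the difference.

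Utf1 (chromosome 7, 147129755-147131011) encodes a chromatin-bound protein that is lost early when mESCs differentiate. At day 0 it was at 59.1 and 65.8 FPKM in WT and 70.9 and 77.2 FPKM in Pcgf5-/- cells. After 6 days WT samples had 43.8 and 21.9 FPKM and Pcgf5-/- samples 154 and 139 FPKM. The Pcgf5-/- day 6 samples were thus the highest of all 8 and the WT day 6 samples the lowest. Utf1 fell by 0.98 in WT (SE 0.27, limma adjusted p = 0.0153), a call lost without WT day 0 sample 2 (0.0782), and the fall was 0.50 without WT day 6 sample 2 (0.0428). The knockout cells moved the other way, and Utf1 rose there by 0.98 (SE 0.27, limma adjusted p = 0.0250), to 198% of day 0. The rise was not called without any 1 of the 4 Pcgf5-/- samples (0.115 and 0.0720 without day 0 sample 1 and 2, 0.110 and 0.0812 without day 6 sample 1 and 2). The genotype difference at day 6 was 2.20 (SE 0.27, limma adjusted p = 0.00421). It ran from 1.72 to 2.69 without 1 day 6 sample and stayed called in each of these fits.

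Tdh (chromosome 14, 64111184-64127929) encodes the enzyme that starts the breakdown of threonine to glycine and acetyl-CoA. Before differentiation WT samples had 184 and 221 FPKM and Pcgf5-/- samples 229 and 210 FPKM. After 6 days WT samples had 19.1 and 7.99 FPKM and Pcgf5-/- samples 56.5 and 41.6 FPKM. Day 0 was high in both genotypes with overlap, and no other of the 10 genes lost as large a share of its level in either genotype. In WT 6.69% of the day 0 level remained (log2 change −3.91, SE 0.33, limma adjusted p = 5.86e-05). The knockout kept 22.3% (−2.15, SE 0.33, limma adjusted p = 0.00253). At day 6 the genotypes differed by 1.88 (SE 0.33, limma adjusted p = 0.0110, and 0.0753 without Pcgf5-/- day 6 sample 1).

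Dppa2 (chromosome 16, 48310387-48319626) and Dppa4 (chromosome 16, 48283848-48294405) are paralogs 16.0 kb apart whose products work as a pair. Dppa2 was at 24.4 and 57.4 FPKM in the WT and 25.8 and 59.5 FPKM in the Pcgf5-/- samples of day 0. On day 6 it was at 19.4 and 7.98 FPKM in WT and 73.6 and 49.0 FPKM in Pcgf5-/- samples. The day 0 samples were 2.36-fold apart in WT and 2.30-fold apart in Pcgf5-/- cells, with sample 2 the higher in both. The WT day 6 samples lay below all other samples, while the Pcgf5-/- samples of the 2 days overlapped. The WT fall was 1.51 (SE 0.54, limma adjusted p = 0.0454), and its call was lost without WT day 0 sample 2 (−0.91) or WT day 6 sample 2 (−0.92). It was also lost with the WT groups fitted alone (limma adjusted p = 0.0532) and without either Pcgf5-/- day 6 sample, which leaves the fall unchanged. The change in Pcgf5-/- cells was 0.60 (limma adjusted p = 0.427). The genotype difference at day 6 was 2.18 (SE 0.54, limma adjusted p = 0.0307), and it was not called without WT day 6 sample 2 (0.170), Pcgf5-/- day 6 sample 1 (0.160) or Pcgf5-/- day 6 sample 2 (0.0766).

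Dppa4 was steadier between samples than Dppa2. On day 0 it was at 48.3 and 64.2 FPKM in WT and 48.5 and 53.4 FPKM in Pcgf5-/- samples. The day 6 samples had 35.6 and 16.0 FPKM (WT) and 84.2 and 75.2 FPKM (Pcgf5-/-). The Pcgf5-/- day 6 samples were above every other sample. Dppa4 fell by 1.18 in WT (SE 0.31, limma adjusted p = 0.0138), a call lost without WT day 0 sample 2 (0.0878), and by 0.63 without WT day 6 sample 2 (0.0455). The change in Pcgf5-/- cells, to 156% of day 0, was 0.63 (limma adjusted p = 0.155). It was called with the Pcgf5-/- groups fitted alone (limma adjusted p = 0.0174) or without either WT day 6 sample. At day 6 the genotypes differed by 1.69 (SE 0.31, limma adjusted p = 0.0123), not called without Pcgf5-/- day 6 sample 1 (0.0788) or sample 2 (0.0511).

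Dppa3 (chromosome 6, 122576442-122580289) lies 77.2 kb from Nanog and encodes STELLA, a maternal and germ cell protein. At day 0 it was at 9.72 and 18.0 FPKM in WT and 14.7 and 8.41 FPKM in Pcgf5-/- cells. By day 6 it stood at 18.7 and 7.78 FPKM in WT and at 63.2 and 86.3 FPKM in Pcgf5-/- samples. The WT samples of both days and the Pcgf5-/- day 0 samples overlapped, and the Pcgf5-/- day 6 samples alone were high. WT kept 95.6% of the day 0 level (log2 change −0.12, SE 0.43, limma adjusted p = 0.837), the smallest change in WT among the 10 genes. In Pcgf5-/- cells Dppa3 rose 6.47-fold (2.62, SE 0.43, limma adjusted p = 0.00328). The difference between the genotypes at day 6 was 2.51 (SE 0.43, limma adjusted p = 0.0104), not called without WT day 6 sample 2 (0.0524), Pcgf5-/- day 6 sample 1 (0.0560) or sample 2 (0.0568).

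Dppa5a (chromosome 9, 78214861-78216006) was the most abundant of the 10 genes in every group. Undifferentiated WT samples had 685 and 806 FPKM and Pcgf5-/- samples 726 and 610 FPKM. The day 6 levels were 168 and 76.8 FPKM in WT and 386 and 423 FPKM in Pcgf5-/- samples. The order of the groups was that of Pou5f1, with overlap at day 0 and none at day 6. It fell by 2.70 in WT (SE 0.31, limma adjusted p = 0.000245), to 16.4%. In the knockout 60.6% remained (−0.72, SE 0.31, limma adjusted p = 0.108). This change was called with the Pcgf5-/- groups fitted alone (limma adjusted p = 0.0232) or without either WT day 6 sample. The genotypes differed by 1.82 at day 6 (SE 0.31, limma adjusted p = 0.00989), not called without Pcgf5-/- day 6 sample 1 (0.0586) or sample 2 (0.0502). A near copy, Dppa5b, is annotated close by, and how reads shared by the copies were divided is not given in the sources used here.

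The first comparison is between genotypes before differentiation. None of the 10 genes was called at day 0 by limma, and none had an unadjusted p under 0.05, where 0.333% of all tested genes were called (38 higher and 6 lower, or 0 and 3 with quantile normalization and 0 and 2 with chromosome centring). The log2 differences ran from −0.25 (Zfp42) to 0.28 (Nanog), with a median of −0.07 against 0.11 for all tested genes. The 95% intervals rest on the spread of each gene over all 4 groups and describe these samples only. They were −0.51 to 0.28 for Sall4, −0.84 to 0.78 for Pou5f1, −0.31 to 0.87 for Nanog and −1.17 to 1.30 for Dppa2, the widest of the 10. The day 0 samples of Pou5f1 were 1.12-fold apart in WT and 1.04-fold apart in Pcgf5-/- cells, against 2.59-fold in WT at day 6. The samples of the genotypes did not overlap for 3 genes, Nanog and Utf1 (higher in Pcgf5-/- cells) and Zfp42 (lower), against 47.9% of tested genes.

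The second comparison is within WT cells over the 6 days. All but Dppa3, 9 of the 10 genes, fell and were called, where 16.2% of tested genes were called lower. Over all tested genes 4522 rose and 2146 fell, or 3181 and 3020 with quantile normalization and 3331 and 3258 with chromosome centring. The fall was largest for Tdh, Zfp42 and Nanog, then Dppa5a and Pou5f1, and smallest for Sall4, and the median log2 change was −2.04 against 0.22 for all tested genes (−2.67 without WT day 6 sample 1 and −1.41 without WT day 6 sample 2). Without WT day 0 sample 2 the calls of Utf1, Dppa2 and Dppa4 were lost, with log2 changes of −0.91, −0.91 and −0.98. Without any other sample at most the call of Dppa2 was lost. In each of these fits fewer of all tested genes were called too. For those 9 genes both day 6 samples lay below both day 0 samples, which held for 28.1% of tested genes.

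The third comparison is within Pcgf5-/- cells over the same 6 days. Nanog, Zfp42 and Tdh fell, with 10.4% of tested genes called lower, and Utf1 and Dppa3 rose, with 21.9% called higher. Over all tested genes 2898 rose and 1373 fell, or 1961 and 1734 with quantile normalization and 2148 and 1932 with chromosome centring. Pou5f1, Sall4, Dppa2, Dppa4 and Dppa5a were not called, with log2 changes between −0.72 and 0.63. The median change was −0.35 against 0.13 for all tested genes, and the days overlapped for Dppa2 alone, where 68.4% of tested genes did not overlap. Without any 1 Pcgf5-/- sample the calls of Utf1 and Zfp42 were lost, and fewer of all tested genes were called too. Pou5f1, Dppa4 and Dppa5a were called as well without either WT day 6 sample or with the Pcgf5-/- groups fitted alone. The WT samples do not enter these changes, only their SE. As a share of the day 0 mean, WT kept 6.69% to 95.6% (median 25.9%) and Pcgf5-/- cells 22.3% to 647% (median 78.9%). In both genotypes Tdh was the lowest and Dppa3 the highest.

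**Figure D2:**
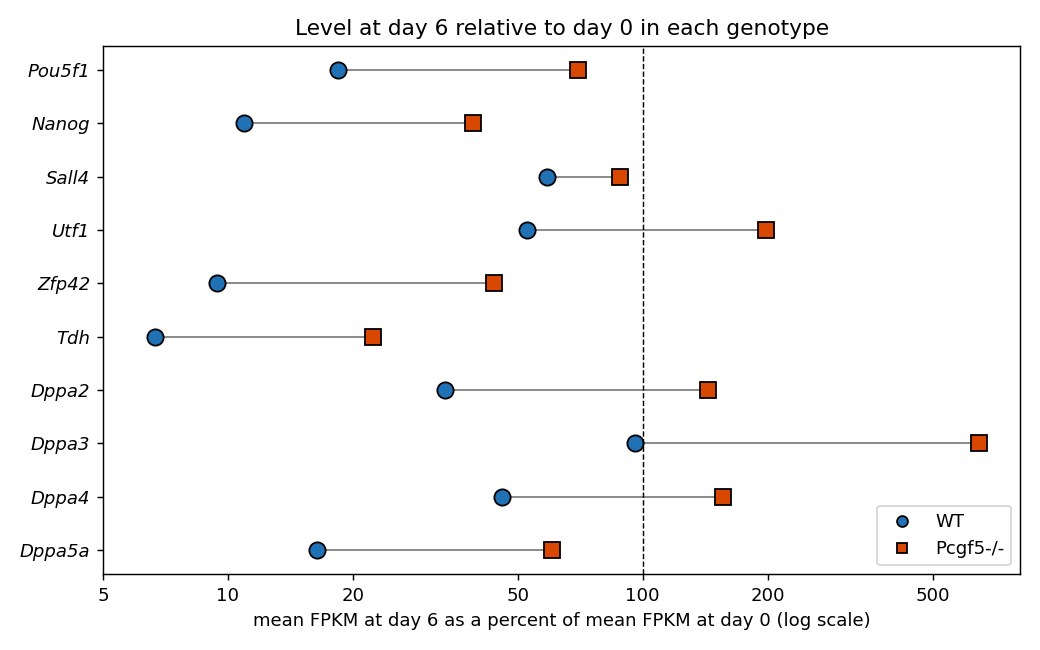
Mean FPKM at day 6 as a percent of the mean at day 0 (log axis) for each gene, with circles for WT and squares for Pcgf5-/- cells, each from 2 samples per day; the dashed line is 100%. All 10 WT circles are at or under 95.6%, whereas Utf1, Dppa2, Dppa3 and Dppa4 in Pcgf5-/- cells are past 100%.

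The fourth comparison is between the genotypes at day 6. By limma 9 of the 10 genes were called, all higher in Pcgf5-/- cells, and Sall4 was not called, where 9.57% of tested genes were called higher and 7.05% lower (1265 and 932 genes, or 851 and 973 with chromosome centring). The ratio of mean FPKM was 1.35 for Sall4 and between 3.09 (Dppa4) and 5.64 (Dppa3) for the other 9, with a median of 3.81 over the 10. The median log2 difference was 2.03 against 0.02 for all tested genes, and it was 2.63 without WT day 6 sample 1 and 1.40 without WT day 6 sample 2. For all 10 genes the 2 Pcgf5-/- samples lay above the 2 WT samples, which held for 33.4% of tested genes. Fewer of the 10 genes were called without Pcgf5-/- day 6 sample 1 or 2 or WT day 6 sample 2, and fewer of all tested genes were called there too. Nanog and Utf1 stayed called in each of these fits. The median difference was 1.92 without Pcgf5-/- day 6 sample 1 and 2.11 without sample 2, and every difference stayed positive. With chromosome centring, 9 were still called, but the 2 genes on chromosome 6 had smaller differences. Dppa3 went from 2.51 to 2.11, below Dppa2 (2.21) and Utf1 (2.16), and Nanog went from 2.16 to 1.76. In bulk RNA, fewer cells of a type and less RNA per cell cannot be told apart.

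The fifth comparison asks whether the genotype difference itself changed between the days. By the interaction term Nanog (1.88, SE 0.36, limma adjusted p = 0.0396), Utf1 (1.96, SE 0.38, limma adjusted p = 0.0390) and Zfp42 (2.29, SE 0.45, limma adjusted p = 0.0435) were called, where 3.09% of tested genes were called in either direction and 1.34% in this one (177 higher and 231 lower, or 307 and 225 with quantile normalization). The other 7 terms were also positive, from 0.54 for Sall4 (limma adjusted p = 0.224) to 2.74 for Dppa3 (limma adjusted p = 0.0538). Dppa5a (0.0526), Pou5f1 (0.0645), Dppa4 (0.0649), Tdh (0.0778) and Dppa2 (0.153) also missed the threshold, and 9 of the 10 had an unadjusted p under 0.05. The 3 calls were lost without any 1 day 0 sample or Pcgf5-/- day 6 sample, where fewer of all tested genes were called too. In those fits the terms ran from 1.76 to 1.99 for Nanog, 1.88 to 2.04 for Utf1 and 2.18 to 2.40 for Zfp42. Without WT day 6 sample 1 the same 3 terms were 2.34, 2.44 and 2.88, and without sample 2 they were 1.41, 1.48 and 1.69.

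**Figure D3:**
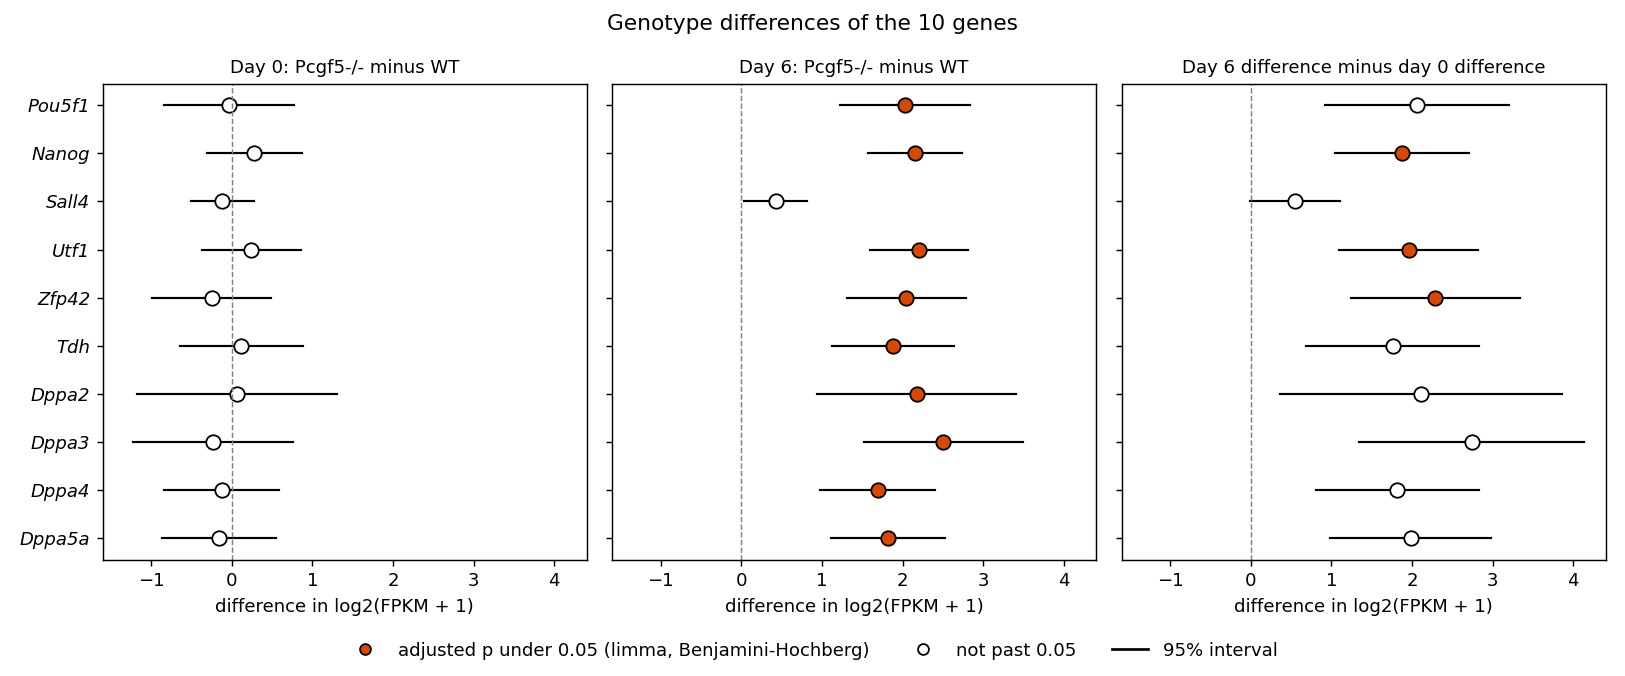
Genotype differences of the 10 genes on the log2(FPKM + 1) scale at day 0, at day 6 and as the difference between the days; points are limma estimates from 2 samples per group, bars are 95% intervals and filled points have an adjusted p under 0.05. At day 0 all 10 intervals include 0; at day 6 9 points lie between 1.69 and 2.51 and Sall4 lies at 0.43.

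The 2 WT day 6 samples were not alike in these genes. All 10 were higher in sample 1 than in sample 2, by 1.01-fold for Sall4 to 2.59-fold for Pou5f1 (median 2.30-fold). Of the 10 genes, 7 were over 2-fold higher in sample 1, against 1.53% of tested genes. The Pcgf5-/- day 6 samples differed by a median of 1.11-fold, and the day 0 samples by a median of 0.853-fold in WT and 0.965-fold in Pcgf5-/- cells. Summed FPKM of marker lists for other cell types also differed between the WT day 6 samples: 10 primitive endoderm genes summed to 206 in sample 1 and 37.1 in sample 2, 15 feeder fibroblast genes to 71.7 and 222, 10 neuron genes to 525 and 371, and 13 neural progenitor genes to 332 and 325. Their part in the levels of the 10 genes was not tested.

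**Figure D4:**
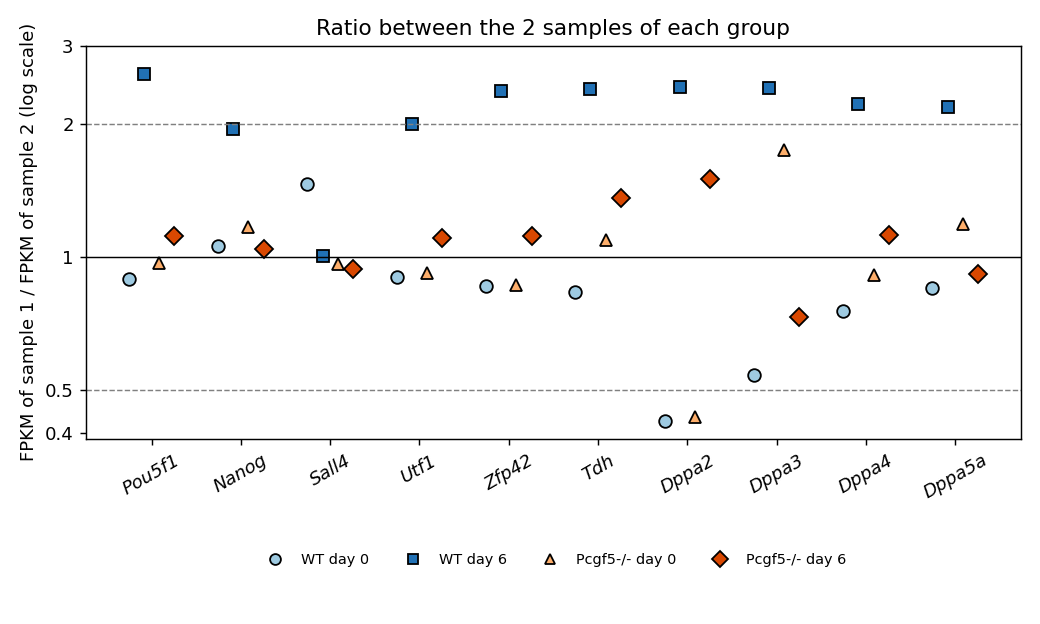
FPKM of sample 1 divided by FPKM of sample 2 (log axis) in each of the 4 groups for the 10 genes; the solid line is a ratio of 1 and the dashed lines are 2-fold. The WT day 6 squares lie between 1.01 and 2.59, and Dppa2 at day 0 lies at or under 0.434 in both genotypes.

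Markers of neural cells moved the other way at day 6. Of 13 neural progenitor genes, 10 were lower in Pcgf5-/- cells and none higher, against 7.05% of all tested genes called lower. Among the 10 were Pax3 (−2.54), Fabp7 (−1.67), Hes5 (−1.64) and Nes (−1.42). The list summed to 118 and 129 FPKM in Pcgf5-/- samples against 325 and 332 in WT. Of 10 neuron genes, 5 were lower, Nefm (−2.43), Elavl3 (−1.55), Elavl4 (−1.18), Tubb3 (−0.95) and Stmn2 (−0.93), and the sums were 191 and 173 FPKM against 525 and 371. None of 14 tested feeder fibroblast genes was called between genotypes at either day. Their sum was 371 and 293 FPKM in WT and 235 and 848 FPKM in Pcgf5-/- samples at day 0, and 54.1 and 59.1 FPKM in Pcgf5-/- samples at day 6. None of 8 primitive endoderm, 4 mesendoderm and 4 trophoblast genes was called at day 6. The primitive endoderm list summed to 47.9 and 20.3 FPKM in the Pcgf5-/- day 6 samples, the mesendoderm list to 3.67 to 10.5 FPKM over the 8 samples, and the trophoblast list to 128 and 253 FPKM in WT and 61.8 and 83.5 FPKM in Pcgf5-/- samples of day 6. The part of these cell types in the results was not tested. At day 0 the neural progenitor list summed to only 18.4 to 22.6 FPKM in the 4 samples, whereas the neuron list summed to 162 to 216 FPKM, led by Stmn2 (90.0 to 132 FPKM).

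Other genes of the pluripotency network were counted beside these 10. Of 24 measured core and naive partners, 14 were higher in Pcgf5-/- cells at day 6 and none lower, with a median difference of 1.42, against 9.57% of all tested genes called higher and a median of 0.02. Tdgf1, a NODAL co-receptor, differed by 2.44, Esrrb, an orphan nuclear receptor, by 2.40, Fbxo15, an F-box gene driven by POU5F1 and SOX2, by 2.32 and Nr0b1, an orphan receptor that binds POU5F1, by 2.18. Sox2 differed by 0.30 (limma adjusted p = 0.0901) and Lin28a by −0.13 (limma adjusted p = 0.841), and both are also used in neural progenitors. Over the 6 days 19 of the 24 fell in WT and 14 fell in Pcgf5-/- cells, where 16.2% and 10.4% of all tested genes fell. None was called between genotypes at day 0.

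Genes around TDH moved less than Tdh. Of 13 tested threonine, glycine and one-carbon genes, 4 were higher at day 6 in Pcgf5-/- cells and 1 lower, with a median of 0.30, where 9.57% of all tested genes were called higher and 7.05% lower. Mthfd2 and Shmt1, enzymes that carry one-carbon units on folate, differed by 0.81 and 0.77, Amt of the glycine cleavage system by 0.63 and Mthfd1 by 0.41, while Mthfd2l differed by −1.36. Gcat, the enzyme that takes the product of TDH, was at 17.8 FPKM in WT at day 6 and differed by 0.22 (limma adjusted p = 0.506). Of 15 SALL family and NuRD genes, Mta3 was higher (1.02), and Sall2 (−0.84) and Hdac2 (−0.47) were lower in Pcgf5-/- cells at day 6, a count near those shares. Sall1 (0.25) and Sall3 (−1.07) were not called, so that the 4 SALL genes had differences of both signs.

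DPPA2 and DPPA4 are known to switch on cleavage-stage genes in mESCs. Of 30 such genes measured, 9 passed the FPKM minimum and none was called at day 6 or day 0 by limma. Of all tested genes, 9.57% were called higher and 7.05% lower at day 6, and 0.333% were called at day 0. A count of 0 among 9 is near those shares. The 4 with the largest differences at day 6 were Zscan4b (−0.68), Zscan4f (−0.66), Gm4340 (−0.53) and Zscan4c (−0.52), and 3 of the 9 had positive differences. Their relation to the levels of Dppa2 and Dppa4 was not tested. Zscan4 and Gm genes are multicopy families whose reads may be split among copies. Of 12 primordial germ cell genes, 7 were higher in Pcgf5-/- cells at day 6 and none lower, against 9.57% of all tested genes called higher. These were Prdm14 (1.91), Ifitm1 (1.88), Dazl (1.68), Tfap2c (1.59), Dnd1, Prdm1 and Ifitm3. Prdm14 is also in the list of core and naive partners. Prdm1, which specifies germ cells, averaged 2.20 and 2.19 FPKM in WT at day 0 and day 6. In Pcgf5-/- cells it rose from 2.22 to 6.18 FPKM (log2 change 1.17, limma adjusted p = 0.00749). Nanos3 rose there as well (1.79, limma adjusted p = 0.0162), and Dazl fell by 1.90 (limma adjusted p = 0.00247). Over these 6 days 2 of the 12 were called higher in Pcgf5-/- cells and 2 lower, where 21.9% and 10.4% of all tested genes were. The count of rises is near that share. Of 15 formative and primed genes, Etv4, Tcf15 (1.75), Etv5 (1.63) and Lef1 (1.48) were higher at day 6 and Cdh2, Sox3 and Sall2 lower. These are 4 and 3 calls, where 9.57% of all tested genes were called higher and 7.05% lower. In all, 12 of the 15 had positive differences, with a median of 0.99 against 0.02 for all tested genes.

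Of 39 other genes within 100 kb of the 10, 21 were tested, and 4 were called at day 6, all higher in Pcgf5-/- cells, against 9.57% of all tested genes called higher. The first pair stands beside Dppa3 and Nanog on chromosome 6. Gdf3, a TGF-β family ligand of pluripotent cells 16.4 kb from Dppa3, was at 18.2 and 6.17 FPKM in WT and 80.1 and 61.4 FPKM in Pcgf5-/- samples at day 6, against 51.6 to 74.9 FPKM in the 4 day 0 samples. It was thus low in WT at day 6 only, and its log2 difference was 2.60 (SE 0.39, limma adjusted p = 0.00758). Apobec1, a cytidine deaminase 24.0 kb from Dppa3, was at 2.64 and 1.55 FPKM in WT and 9.10 and 12.1 FPKM in Pcgf5-/- samples at day 6. It fell by 0.92 in WT (limma adjusted p = 0.0197) and rose by 0.85 in Pcgf5-/- cells (limma adjusted p = 0.0406), with a day 6 difference of 1.92 (SE 0.26, limma adjusted p = 0.00603). In the same stretch Slc2a3 (0.57, limma adjusted p = 0.0603) and Mfap5 (0.70, limma adjusted p = 0.0699) were not called. These values are not centred by chromosome, and tested genes of chromosome 6 had a median difference of 0.37 at day 6.

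The other called neighbours stand beside Dppa5a. Ooep, which like Dppa5a encodes a small KH-domain protein, lies 8.70 kb away and was at 3.58 and 1.13 FPKM in WT and 13.6 and 12.1 FPKM in Pcgf5-/- samples at day 6. At day 0 it was at 38.6 and 46.9 FPKM in WT and 25.0 and 22.2 FPKM in Pcgf5-/- cells, so the genotypes stood in opposite order at the 2 days without overlap. Its difference was −0.83 at day 0 (limma adjusted p = 0.227) and 2.15 at day 6 (SE 0.31, limma adjusted p = 0.00734), and the interaction of 2.98 was called (limma adjusted p = 0.0275). Ddx43, a helicase gene 27.6 kb away, differed by 1.71 (SE 0.24, limma adjusted p = 0.00603), while Mb21d1 (0.64, limma adjusted p = 0.0532) and Mto1 (0.22, limma adjusted p = 0.385) did not pass. Further members of the same oocyte complex as Ooep, Khdc3 (1.93) and Tle6 (1.12), were also higher at day 6, so that all 3 tested of 8 genes in that list were called, against the same 9.57%.

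No tested neighbour of Pou5f1 (H2-Q7, H2-Q10, Tcf19, Cchcr1, Psors1c2 and 2300002M23Rik), Utf1 (Kndc1, Adam8, Tubgcp2 and Zfp511), Sall4 (Atp9a) or Tdh (Fam167a and Mtmr9) was called at day 6. Tcf19, 1.96 kb from Pou5f1, was at 11.6 FPKM in WT and 6.46 FPKM in Pcgf5-/- samples at day 6 (−0.74, limma adjusted p = 0.115), the sign opposite to that of Pou5f1. Kndc1, 2.32 kb from Utf1, averaged 0.460 FPKM in WT and 1.04 FPKM in Pcgf5-/- samples at day 6 (0.48, limma adjusted p = 0.0727). Around Dppa2 and Dppa4 and around Zfp42 no other gene was tested. The 18 untested neighbours did not exceed a group mean of 0.832 FPKM (H2-Q9).

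**Figure D5:**
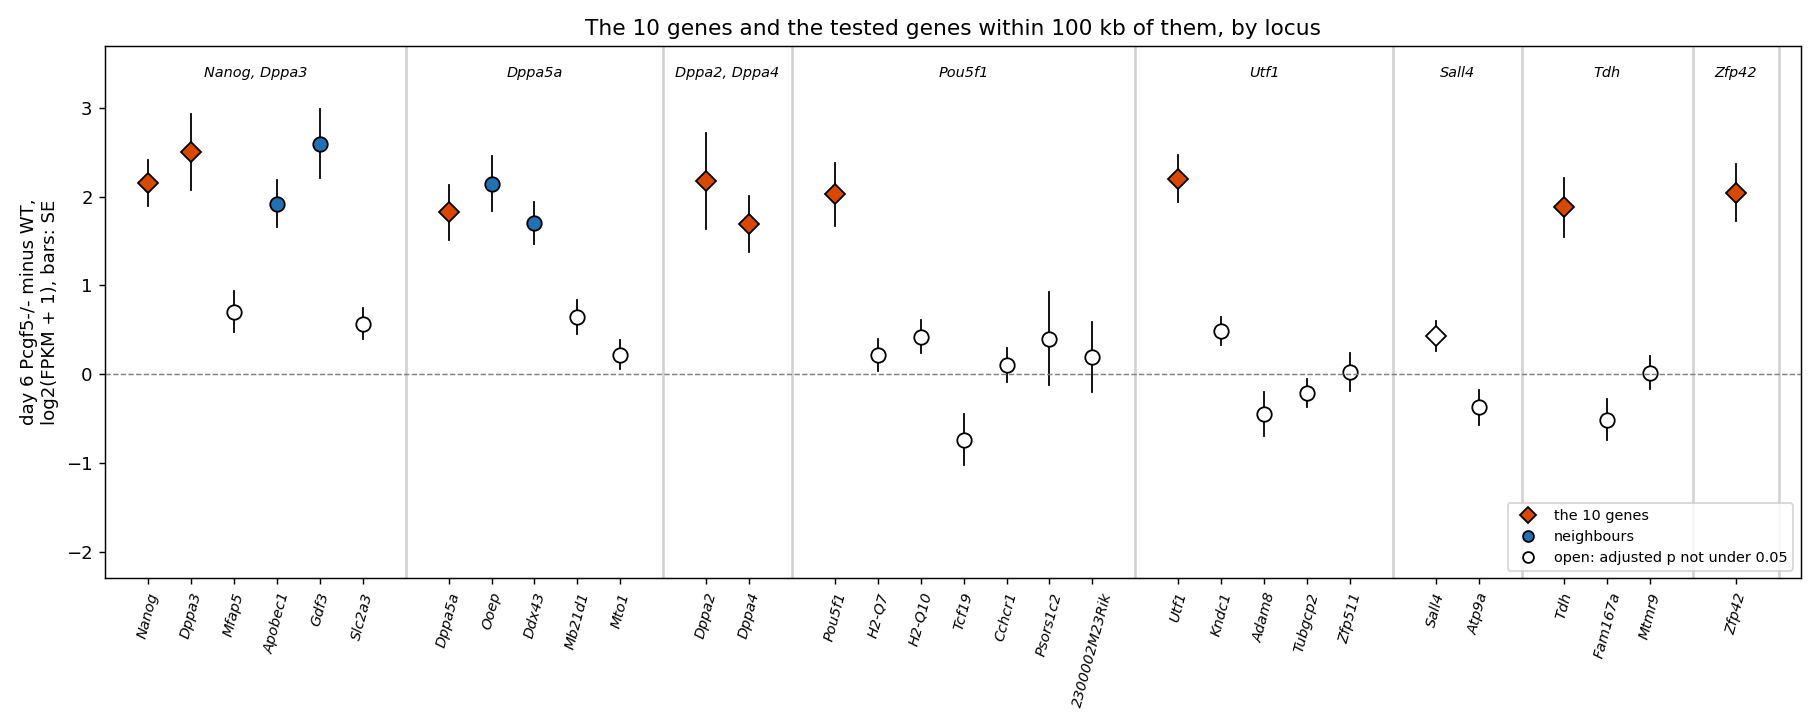
Day 6 genotype difference, Pcgf5-/- minus WT, on the log2(FPKM + 1) scale for the 10 genes (diamonds) and the 21 tested genes within 100 kb of them (circles), grouped by locus; bars are SE and open symbols did not pass an adjusted p of 0.05. Gdf3 (2.60), Apobec1 (1.92), Ooep (2.15) and Ddx43 (1.71) are filled, and the circles at the Pou5f1, Utf1, Sall4 and Tdh loci are open.

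Across the 8 samples the 10 genes did not follow 1 profile. The Pearson correlation of each with the mean of their standardised values was 0.980 for Pou5f1, 0.951 for Dppa5a, 0.924 for Zfp42, 0.922 for Nanog, 0.919 for Dppa4, 0.866 for Dppa2, 0.857 for Tdh, 0.826 for Utf1, 0.773 for Sall4 and 0.371 for Dppa3. Pairs ranged from 0.989 for Zfp42 with Dppa5a to −0.14 for Tdh with Dppa3. These 8 points share genotype, day and library, so the values only describe likeness. Outside the 10, the tested genes nearest to their mean were Gdf3 (0.990), Zscan10 (0.989), Tex14 (0.986), 2610305D13Rik (0.985), 4930461G14Rik (0.983), Galt (0.982), Slc29a1 (0.982), Sohlh2 (0.979), Mov10 (0.979) and Slc7a3 (0.978). Zscan10, a zinc finger factor of pluripotent cells, averaged 48.5 and 13.0 FPKM in WT at day 0 and day 6 and 42.7 and 48.1 FPKM in Pcgf5-/- cells. Mov10, an RNA helicase, averaged 35.5 and 9.74 FPKM in WT and 30.6 and 39.1 FPKM in Pcgf5-/- cells. Nearest to Pou5f1 were Hsf2bp (0.997), Glud1 (0.996) and 2610305D13Rik (0.994), and nearest to Nanog were Lrmp (0.995), Gnpda1 (0.995) and Upp1 (0.994). Of these near genes, Gdf3 and Lrmp lie on chromosome 6, as Nanog does, and Tex14 and Upp1 on chromosome 11. Both chromosomes were shifted upward as a whole in Pcgf5-/- cells, and the part of that shift in the likeness was not tested.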

How the data were processed

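PolyA+ RNA of 8 samples (WT and Pcgf5-/- mESCs, day 0 and day 6, 2 samples each) was sequenced. The authors trimmed adapters and low-quality bases, removed identical read pairs, mapped to mm9 with TopHat2 2.0.4 and deposited FPKM per gene from Cufflinks 2.1.1 (versions from the submitters' processing notes). Removing identical reads can flatten the most abundant genes. The deposited confidence bounds of FPKM were not used, since FPKM lay outside its own bounds in 1074 to 1347 rows per sample. FPKM are not counts, so no count model was run and counting error is unknown; with 2 samples per group the p-values measure the spread between these samples only.

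Files were joined by symbol and locus, with 1 added to start positions. For 13214 genes with a group mean over 1 FPKM, log2(FPKM + 1) was fitted with limma 3.58.1 (R 4.3.3; trended variances, 4 group means, 8 samples, 5 contrasts, Benjamini-Hochberg adjustment, threshold 0.05). Tested on simulated data for the day 6 comparison over 13214 genes, 42.0% of 2-fold and 85.6% of 4-fold changes were called, and 4.70% of calls were false. The simulation changed 200 genes in each of 5 runs and gave every gene independent noise. In the data 2197 genes were called at day 6, and deviations shared across genes were not simulated. The simulated rates therefore need not hold for the real comparison. Python 3.11.15, pandas 2.3.3 and matplotlib 3.10.9 were used for the rest.

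The 10 genes, the lists and the alternatives were chosen with earlier results of these data known. Named were the 10 genes, Pcgf5, up to 4 genes per list and comparison (those with the largest differences among the called, or among the tested if none was called), genes within 100 kb, and the nearest profiles (10 for the mean, 3 each for Pou5f1 and Nanog). Genes beyond this rule (Sox2, Lin28a, Gcat, Mthfd1, Stmn2, Sall1, Sall3, Dnd1, Prdm1, Ifitm3, Nanos3 and the lower formative genes) were chosen after their values were seen. The promoter windows matched 4 of 10 symbols. Alternatives were other pseudocounts (0.1 and 0.01), FPKM filters, quantile normalization, chromosome centring, replicate blocks, fits of the compared groups alone and leaving out each sample.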

Additional observations from a re-analysis of the deposited data

Results flagged for a closer look

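For 3 genes the difference between Pcgf5-/- and WT cells at day 6 was not the same as at day 0 by the limma interaction test. Nanog differed by 1.88 more at day 6 than at day 0 (log2, SE 0.36, adjusted p = 0.0396), Utf1 by 1.96 more (SE 0.38, adjusted p = 0.0390) and Zfp42 by 2.29 more (SE 0.45, adjusted p = 0.0435). Both Pcgf5-/- samples lay above both WT samples at day 6 for all 3 genes, whereas at day 0 Zfp42 was lower in both Pcgf5-/- samples. Without WT day 6 sample 2 the terms were smaller, at 1.41 for Nanog, 1.48 for Utf1 and 1.69 for Zfp42. The 3 calls were lost without any 1 of the day 0 samples or of the Pcgf5-/- day 6 samples, where fewer of all tested genes were called too. There the terms ran from 1.76 to 1.99 for Nanog, 1.88 to 2.04 for Utf1 and 2.18 to 2.40 for Zfp42.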

How the results depend on the processing

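Direction and side of the threshold were kept in 154 of 170 alternative values for the 10 genes at day 6, 159 of 170 at day 0, 159 of 170 for WT over time, 148 of 170 for Pcgf5-/- over time and 120 of 160 for the interaction. These counts include alternatives that cannot change a difference or its direction. They are the replicate blocks, fits of the compared groups alone and fits without a sample outside the comparison, where only the side of the threshold could change. At day 6, leaving out 1 sample gave 297 to 1977 calls over all genes (2197 with all samples) and 2 to 10 among the 10 genes. At day 0, where 44 genes were called, there were 6 with no FPKM filter, 102 at a mean over 5 FPKM, 3 with quantile normalization, 2 with chromosome centring, 0 with the compared groups alone (2019 at an unadjusted p under 0.05) and 1 to 22 without 1 sample. The reversed values at day 0 were Dppa2 with quantile normalization (−0.051) and chromosome centring (−0.023), Nanog with chromosome centring (−0.16), and, without 1 day 0 sample, the values ran from −0.54 to 0.67 for Dppa2, −0.39 to 0.15 for Sall4, −0.012 to 0.25 for Tdh, −0.12 to 0.053 for Pou5f1, −0.65 to 0.18 for Dppa3 and −0.33 to 0.074 for Dppa4. Over time in WT, Dppa3 turned to 0.30 without WT day 0 sample 2 and ran from −0.70 to 0.47 without 1 day 6 sample. In Pcgf5-/- cells, 3 of the 10 were called with no FPKM filter, 8 with the compared groups alone and 3 to 8 without 1 sample, and 2367 to 4147 genes in all. For the interaction (408 genes), 251 were called at pseudocount 0.1, 191 at 0.01 (0 of the 10), 86 with no FPKM filter (0 of the 10) and 4 to 347 without 1 sample (0 to 8 of the 10), and 5 of the 10 at a mean over 5 FPKM or with quantile normalization. Samples outside a comparison change its SE and p-value and not its difference. Other causes of these changes were not tested. Quantile normalization moved the median of all genes from 0.11 to −0.01 at day 0, from 0.22 to 0.00 in WT over time and from 0.13 to 0.02 in Pcgf5-/- cells.

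The labels do not say that samples of 1 replicate number share a batch or day, so the block is given as an alternative only. Their deviations from the group means correlated by 0.39 between genotypes at day 6, 0.10 at day 0 and −0.08 to −0.02 between days. With a replicate block over both days, 9 of the 10 genes were called at day 6 (2410 genes in all) and 0 at day 0 (1 gene in all). There were 8 over time in WT (6935 in all), 5 in Pcgf5-/- cells (4584) and 2 for the interaction (429, with Zfp42 lost at an adjusted p of 0.0501). With a replicate block within each day, the counts were 9 (3235 genes in all), 0 (282), 9 (7672), 6 (5533) and 8 (1167, against 408 without the block). There the interaction was called for Pou5f1 (adjusted p = 0.0374), Tdh (0.0282), Dppa2 (0.0196), Dppa4 (0.0331) and Dppa5a (0.0483), which were not called without the block. Depth is not given, and counting noise of low genes such as Dppa3 could not be set apart.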
